A study of Mus musculus with 4 samples.

Results

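The genes described here encode the nuclear subunits of respiratory complexes II to V of mitochondria. They were chosen by symbol, as the rows named Sdha to Sdhd, those beginning with Uqcr, Cox4 to Cox8 or Atp5, and Cyc1 and Cycs, without names marked as pseudogenes, which gave 50 of the 22138 genes in the deposited table. Of these, 46 are subunits of a complex or cytochrome c. The other 4 share only the naming pattern or are related factors: Cox4nb, now Emc8, is the genomic neighbour of Cox4i1 and encodes a subunit of an endoplasmic reticulum membrane complex; Cox7a2l, a relative of subunit 7A, joins complexes III and IV; Atp5s and Atp5sl, now Dmac2l and Dmac2, are named for factor B and are not part of the rotary enzyme. Cox4nb and Cox7a2l were counted with complex IV, and Atp5s and Atp5sl with complex V.

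The cells were TT2, mouse embryonic stem cells labelled female and C57BL/6xCBA, kept without feeders in medium with serum and LIF, so every value comes from this 1 line. Control siRNA (n = 2 libraries) was compared with siRNA against Hnrnpk (n = 2 libraries), the gene of the RNA- and DNA-binding protein hnRNP K. Both groups were transfected once with 100 nM siRNA and again 24 hours later with 50 nM, and RNA was taken about 72 hours after the second transfection. The title of the series concerns hnRNP K in silencing by the histone methyltransferase SETDB1, and the comparison asks which transcripts changed when Hnrnpk was depleted.

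Electrons from succinate enter the respiratory chain at complex II, succinate dehydrogenase, and pass through ubiquinone to complex III, the cytochrome bc1 complex. Cytochrome c carries them from complex III to complex IV, cytochrome c oxidase, where oxygen is reduced. The proton gradient built by the chain turns complex V, ATP synthase, in which a ring of c subunits in the membrane drives the catalytic F1 head while a peripheral stalk holds the head still. Complex II is encoded in the nucleus alone, whereas complexes III, IV and V also hold subunits made from mitochondrial DNA. Complex IV has alternative isoforms of several nuclear subunits, some of them typical of heart, muscle or testis. Embryonic stem cells in culture rely strongly on glycolysis and also respire.

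Values were RPKM, reads scaled to the length of the gene and to the reads mapped in the library, so they allow levels to be compared between genes per unit of length. The commonest ratio between low values of a pair of libraries gave relative depths of 1 and 0.982 for the control libraries and 0.891 and 0.882 for the depleted ones; RPKM values keep no read counts, so no counting interval is given. Hnrnpk itself stood at 236 and 226 RPKM after control siRNA and at 68.0 and 70.5 RPKM after Hnrnpk siRNA (log2 change -1.73, limma adjusted p = 6.59e-08). All 9 pluripotency markers were present in every library, but not all were level. Of the 9, 2 were called higher (22.2%, beside 32.2% of all genes tested), 3 lower (33.3%, beside 35%) and 4 not called. Nanog stood at 204 and 190 RPKM after control siRNA and 353 and 342 RPKM after Hnrnpk siRNA, and Dppa5a also rose. Sox2 stood at 231 and 195 RPKM and fell to 147 and 146 RPKM, and Tdgf1 and Utf1 fell too, while Pou5f1 (287, 301, 245 and 286 RPKM), Zfp42 and Klf4 were among those not called. Fibroblast markers summed to 10.4 and 8.79 RPKM after control siRNA and to 5.05 and 5.31 RPKM after Hnrnpk siRNA. Of the 3 tested, 2 were called lower (66.7%, beside 35% of all genes tested). Summed markers of other cell types were higher after Hnrnpk siRNA. Those of primitive endoderm went from 21.8 and 21.0 to 62.8 and 64.6 RPKM. There 6 of 7 tested rows were called higher (85.7%, beside 32.2% of all genes tested). Those of trophectoderm went from 30.5 and 36.0 to 68.5 and 73.1 RPKM, with 5 of 5 called higher (100%, beside 32.2%). Those of the two-cell-like state went from 0.591 and 0.560 to 36.7 and 43.0 RPKM. All 6 tested markers of that state averaged under 0.5 RPKM after control siRNA and passed the filter through the depleted libraries alone, so no count of their calls is given; the same holds for 1 of the 7 primitive endoderm rows, Pdgfra. A Dab2 row, 1 of 2 with that symbol, was at 0 in every library. The part of these markers in the results below was not tested, and in bulk RNA fewer cells of a type and less RNA per cell cannot be told apart.

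Of the 50 genes, 48 averaged 0.5 RPKM or more across the 4 libraries and were tested; Cox6a2 and Cox8b were below it. Testing used limma on log2(RPKM + 0.5), and a gene was called higher or lower at a Benjamini-Hochberg adjusted p under 0.05 over all 12486 genes tested. Of the 48, 20 were called higher after Hnrnpk siRNA (41.7%) and 4 lower (8.33%), beside 32.2% and 35% of all genes tested; 24 were not called, and in either direction 67.2% of all genes tested were called. For 25 of the 48 the lower Hnrnpk siRNA library was above the higher control library (52.1%, against 41.2% of all genes tested), and for 6 the reverse held (12.5%, against 43.5%). The median log2 change of the 48 was 0.15, and that of all genes tested was -0.015. The median of the 48 was 0.24 without Hnrnpk siRNA replicate 1, 0.050 without replicate 2, 0.071 with the length trend removed and 0.015 under quantile normalization. Most changes of the 48 were small. A called change of at least 0.5 on the log2 scale was reached upwards by 6 of the 48, while 13.7% of all genes tested reached it. Downwards it was reached by 2 of the 48, while 18% of all genes tested reached it.

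The 8 genes with called changes of that size were Uqcrb, Cycs, Cox5a, Cox5b, Cox7b2 and Atp5g2, which rose, and Cox4i2 and Atp5s, which fell. Cox7b2 averaged 0.403 RPKM after control siRNA and passed the filter through the depleted libraries alone, which bears on each count that holds it. For 1 gene, an exact permutation of 2 against 2 libraries has a smallest p of 0.333, so the calls depend on the spread limma estimates from all genes. Nothing in the labels says whether replicates were separate cultures, so the p-values measure only the spread between these libraries, which may be technical.

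**Figure D1:**
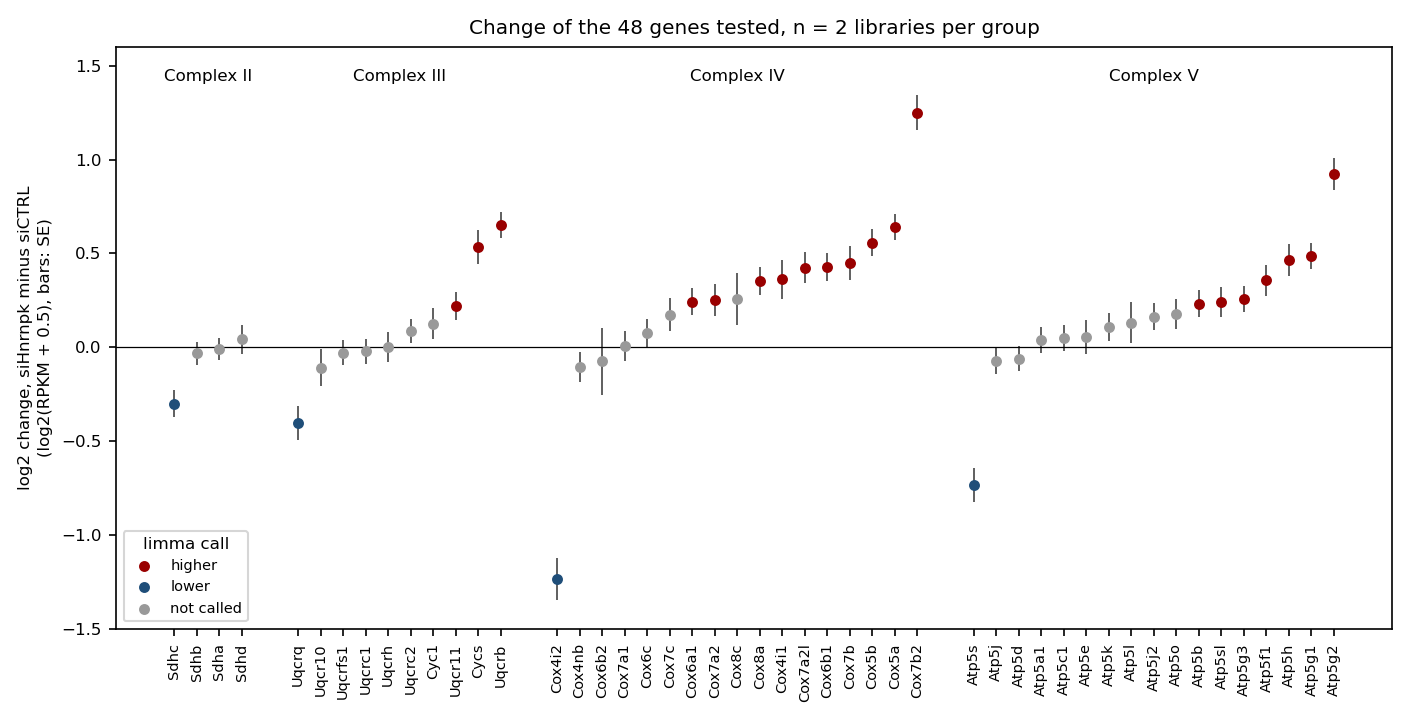
Log2 change (Hnrnpk siRNA minus control siRNA, on log2(RPKM + 0.5), bars are the SE, n = 2 libraries per group) of the 48 genes tested, ordered within each complex; colours give the limma call at an adjusted p under 0.05. Of the 48, 20 lie in the higher class and 4 in the lower class, and the extremes are Cox7b2 at 1.25 and Cox4i2 at -1.23.

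The replicates of the Hnrnpk siRNA group were not level for these genes. Replicate 2 was above replicate 1 in 43 of the 48 genes, against 57.8% of all genes tested, with a median difference of 0.14 on the log2 scale for the 48 and 0.020 for all genes tested. In the control group replicate 2 was above replicate 1 in 26 of the 48, against 42.7% of all genes tested. The median difference there was 0.0087 for the 48 and -0.023 for all genes tested. Without Hnrnpk siRNA replicate 2 the median log2 change was 0.050 for the 48 and -0.024 for all genes tested. Without Hnrnpk siRNA replicate 1 it was 0.24 for the 48 and -0.0030 for all genes tested. The summed RPKM of all 50 genes was 2.52% and 2.55% of the library's total RPKM after control siRNA and 2.69% and 2.90% after Hnrnpk siRNA.

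**Figure D2:**
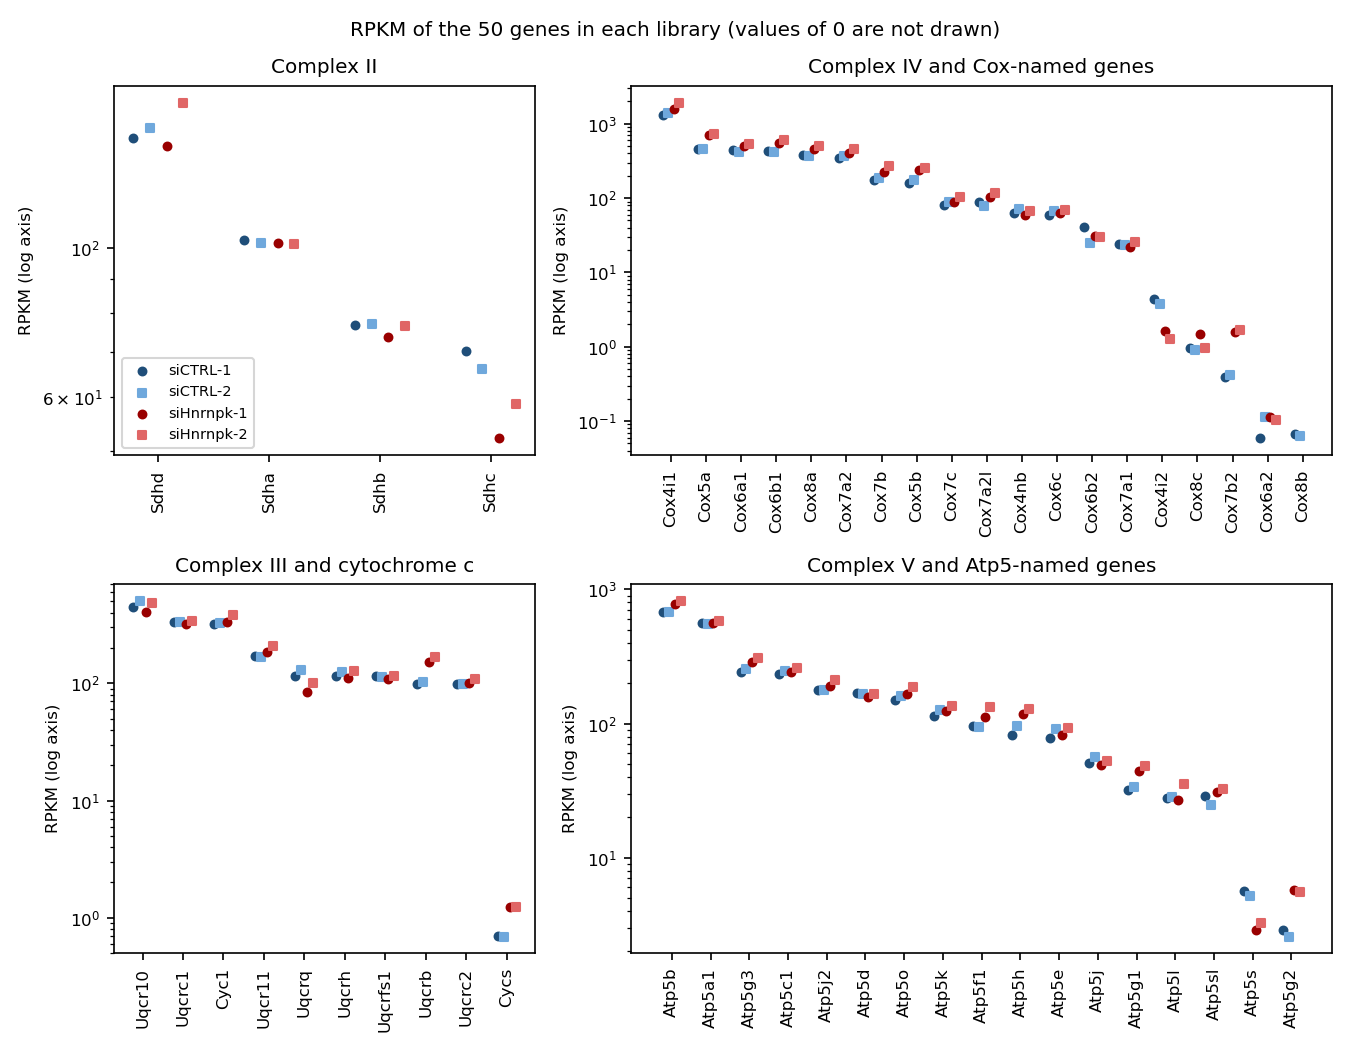
RPKM (log axis) of each of the 50 genes in the 4 libraries, by complex, with genes ordered by their mean in the control libraries; values of 0 are not drawn. Levels run from 1920 RPKM for Cox4i1 down to 0.0583 RPKM for Cox6a2, and the Hnrnpk siRNA replicate 2 point lies above the replicate 1 point in most genes.

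Promoter sequence was looked up for the genes from RefSeq windows on GRCm38.p6, which run from 250 bases before to 50 after an annotated start; the RPKM values were made on mm9, per the submitters' processing notes. Windows were matched for 35 of the 50 genes (38 windows); Uqcrb, Cox4i2 and Atp5s were not among them. The motifs searched on both strands were those of factors known to drive respiratory chain genes: GCGCA and GCGC with any 1 base N between them for NRF1, CCGGAAG for the ETS factor GABPA and AAGATGGCG for YY1, with the E-box CACGTG beside them. NRF1 letters were in 10 of the 38 windows (26.3%), against 4.60% of all 32851 RefSeq windows of that length, and GABPA letters in 12 (31.6%), against 8.86%. YY1 letters were in 2 (5.26%, against 1.403%) and the E-box in 3 (7.89%, against 7.15%). Among genes with a window, NRF1 letters were in 4 of the 16 called higher and 6 of the 18 not called, and GABPA letters in 5 and 7. A match is a description of letters and not a measured site.

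The windows printed are those of the 5 genes with a called change of at least 0.5 that had one, followed by Atp5h, which rose and holds both NRF1 and GABPA letters, and Sdha, which holds NRF1 letters at 3 places and was not called; the last 2 were chosen after their values were seen. They lie at chr9:57520982-57521281 (plus strand) for Cox5a, chr1:36691237-36691536 (plus) for Cox5b, chr6:50566520-50566819 (minus) for Cycs, chr5:71548156-71548455 (minus) for Cox7b2, chr15:102670998-102671297 (minus) for Atp5g2, chr11:115419870-115420169 (minus) for Atp5h and chr13:74350191-74350490 (minus) for Sdha. Each is written 5′ to 3′ on the strand of the gene, and capitals mark the letters of any of the 4 motifs, which do not overlap one another in these windows.
Cox5a: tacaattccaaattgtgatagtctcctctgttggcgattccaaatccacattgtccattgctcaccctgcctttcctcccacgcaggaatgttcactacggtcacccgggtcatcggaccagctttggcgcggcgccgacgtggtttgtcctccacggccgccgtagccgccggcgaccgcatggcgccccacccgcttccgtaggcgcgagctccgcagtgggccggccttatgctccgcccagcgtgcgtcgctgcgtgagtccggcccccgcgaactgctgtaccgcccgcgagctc
Cox5b: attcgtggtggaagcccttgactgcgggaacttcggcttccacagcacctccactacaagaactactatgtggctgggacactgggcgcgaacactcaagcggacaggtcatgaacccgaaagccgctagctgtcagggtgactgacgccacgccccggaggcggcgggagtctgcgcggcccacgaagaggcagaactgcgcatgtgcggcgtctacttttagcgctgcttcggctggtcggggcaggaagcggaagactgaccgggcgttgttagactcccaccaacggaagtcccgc
Cycs: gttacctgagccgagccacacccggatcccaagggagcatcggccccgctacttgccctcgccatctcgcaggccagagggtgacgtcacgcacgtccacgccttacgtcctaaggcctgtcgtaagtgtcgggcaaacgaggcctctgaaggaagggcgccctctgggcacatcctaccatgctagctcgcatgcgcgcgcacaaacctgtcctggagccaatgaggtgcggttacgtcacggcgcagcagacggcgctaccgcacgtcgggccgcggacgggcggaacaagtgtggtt
Cox7b2: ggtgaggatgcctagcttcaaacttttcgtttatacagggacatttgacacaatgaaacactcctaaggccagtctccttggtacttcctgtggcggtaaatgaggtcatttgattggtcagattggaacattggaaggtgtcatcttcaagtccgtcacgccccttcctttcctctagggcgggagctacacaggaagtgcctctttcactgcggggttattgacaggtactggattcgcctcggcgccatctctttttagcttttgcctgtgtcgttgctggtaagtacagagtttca
Atp5g2: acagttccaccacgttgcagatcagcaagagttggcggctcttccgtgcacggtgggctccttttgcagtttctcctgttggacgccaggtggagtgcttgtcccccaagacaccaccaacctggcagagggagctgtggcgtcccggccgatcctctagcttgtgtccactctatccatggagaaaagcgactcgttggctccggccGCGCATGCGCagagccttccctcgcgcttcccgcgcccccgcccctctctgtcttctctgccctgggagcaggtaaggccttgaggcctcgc
Atp5h: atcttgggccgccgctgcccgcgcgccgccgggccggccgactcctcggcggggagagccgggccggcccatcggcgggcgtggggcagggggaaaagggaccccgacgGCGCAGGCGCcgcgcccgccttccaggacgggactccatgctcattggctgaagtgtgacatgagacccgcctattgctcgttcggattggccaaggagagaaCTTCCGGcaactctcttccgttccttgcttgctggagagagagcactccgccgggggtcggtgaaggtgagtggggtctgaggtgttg
Sdha: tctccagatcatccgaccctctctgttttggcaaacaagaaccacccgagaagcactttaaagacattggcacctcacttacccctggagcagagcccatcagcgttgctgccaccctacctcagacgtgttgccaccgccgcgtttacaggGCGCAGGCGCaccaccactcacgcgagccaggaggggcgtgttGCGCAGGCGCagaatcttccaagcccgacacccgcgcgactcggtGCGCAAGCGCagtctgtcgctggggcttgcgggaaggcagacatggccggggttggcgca
Of the 5 genes with the larger changes, only the Atp5g2 window holds letters of any of the 4 motifs. The Sdha window, from a gene whose RPKM was 103 and 102 after control siRNA and 102 and 101 after Hnrnpk siRNA, holds 3 NRF1 matches.

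Complex II had 1 called gene of 4 (25%), beside 67.2% of all genes tested called in either direction. Sdha, the flavoprotein that oxidises succinate, had overlapping groups (log2 change -0.0098, SE 0.060, limma adjusted p = 0.895). Sdhb, the iron-sulfur protein, stood at 76.8 and 77.1 RPKM after control siRNA and 73.7 and 76.7 RPKM after Hnrnpk siRNA; the depleted libraries were slightly below the controls, without a call. The membrane anchor Sdhd stood at 145 and 151 RPKM and at 141 and 164 RPKM, with overlap between the groups.

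The other anchor, Sdhc, was the 1 called gene of the 4 in complex II. It stood at 70.2 and 66.2 RPKM after control siRNA and at 52.1 and 58.6 RPKM after Hnrnpk siRNA. Both depleted libraries were below both controls (log2 change -0.30, SE 0.073, limma adjusted p = 0.00495). The median log2 change of the 4 genes was -0.021, and their summed RPKM was 395 and 396 after control siRNA and 369 and 401 after Hnrnpk siRNA.

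In complex III with cytochrome c, 3 of 10 genes were called higher (30%, beside 32.2% of all genes tested), 1 lower (10%, beside 35%) and 6 not called. The median log2 change was 0.044, and it turned to -0.054 under quantile normalization and to -0.023 without Hnrnpk siRNA replicate 2. The 2 core proteins, cytochrome c1 and the Rieske protein, which form the scaffold and the electron path with mitochondrial cytochrome b, were not called. Uqcrc1 stood at 334 and 332 RPKM after control siRNA and 319 and 337 RPKM after Hnrnpk siRNA, Uqcrfs1, the Rieske iron-sulfur protein, had a log2 change of -0.029, and Uqcrc2 one of 0.086. Cyc1, cytochrome c1, stood at 323 and 330 RPKM and at 330 and 384 RPKM; its depleted libraries were just above the controls (log2 change 0.13, SE 0.083, limma adjusted p = 0.204).

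The small subunits around that core went different ways. Uqcrb, which stands next to cytochrome b, stood at 99.1 and 103 RPKM after control siRNA and at 151 and 167 RPKM after Hnrnpk siRNA. Its groups were well apart (log2 change 0.65, SE 0.069, limma adjusted p = 2.94e-05), and the change stayed between 0.52 and 0.72 under the 14 other ways of processing the table. Uqcrq, another small subunit, went the opposite way, from 116 and 130 RPKM to 84.9 and 101 RPKM. Neither depleted library reached a control library (log2 change -0.40, SE 0.092, limma adjusted p = 0.00342).

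Uqcr11 stood at 170 and 166 RPKM after control siRNA and 183 and 209 RPKM after Hnrnpk siRNA. Its log2 change of 0.22 (limma adjusted p = 0.0270) was lost under 5 of the 14 other ways of processing, with adjusted p-values up to 0.408. Uqcrh, the hinge protein that docks cytochrome c1 with cytochrome c, had a log2 change of 0.0022, and Uqcr10 one of -0.11, both with overlapping groups. Summed RPKM over the 10 genes was 1821 and 1901 after control siRNA and 1792 and 2035 after Hnrnpk siRNA, so the groups overlapped.

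Cycs, the somatic cytochrome c, was listed at a level far below the complexes it connects: 0.706 and 0.692 RPKM after control siRNA and 1.23 and 1.24 RPKM after Hnrnpk siRNA. The groups did not overlap (log2 change 0.53, SE 0.092, limma adjusted p = 0.000631). The longest coding transcript of Cycs shares 35.0% of its 3123 bases, in stretches of 100 bases or longer that match at 95% or better, with 51 other genes. A gene among them, Gm10053, was listed at 4.05 and 3.48 RPKM after control siRNA and 3.81 and 3.87 RPKM after Hnrnpk siRNA. The sources used here do not say how reads matching several places were counted, so the level of Cycs is uncertain. Cyct, the testis cytochrome c, which the naming rule leaves out, stood at 9.39 and 8.02 RPKM and fell to 5.37 and 5.53 RPKM (log2 change -0.62, SE 0.089, limma adjusted p = 0.000186).

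Complex IV held the most called genes. Of 17 tested, 10 were higher (58.8%, beside 32.2% of all genes tested), 1 lower (5.88%, beside 35%) and 6 not called. The median log2 change was 0.26. With the length trend removed 8 were called higher (47.1%, beside 35.3% of all genes tested). Under quantile normalization 8 were called higher as well (47.1%, beside 33.4%). Among the 10 nuclear subunits used in most tissues, 8 were called higher and 2 not, and their log2 changes ran from 0.074 for Cox6c to 0.64 for Cox5a. The summed RPKM of the 17 complex IV subunit genes was 3942 and 4000 after control siRNA and 4858 and 5509 after Hnrnpk siRNA, a ratio of means of 1.31. The total RPKM of all genes was also higher, at 377825 and 390467 after Hnrnpk siRNA against 359659 and 362836 after control siRNA.

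Cox5a and Cox5b encode subunits that sit on the matrix side of the enzyme. Cox5a stood at 464 and 464 RPKM after control siRNA and at 711 and 736 RPKM after Hnrnpk siRNA. The replicates of each group were close and the groups far apart (log2 change 0.64, SE 0.070, limma adjusted p = 3.52e-05). Cox5b stood at 160 and 176 RPKM and then at 240 and 254 RPKM, also without overlap (log2 change 0.56, SE 0.072, limma adjusted p = 0.000101). Both changes held under all 14 other ways of processing, the lowest being 0.42 for Cox5a and 0.45 for Cox5b.

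Cox4i1, the common form of subunit 4 and the highest of all 50 genes, stood at 1322 and 1383 RPKM after control siRNA and at 1573 and 1920 RPKM after Hnrnpk siRNA. The groups did not overlap, but the depleted replicates were further from each other than the lower of them was from the controls (log2 change 0.36, SE 0.105, limma adjusted p = 0.0122). Under quantile normalization that change was -0.0072, and the call was also lost with no filter and without control replicate 1 or Hnrnpk siRNA replicate 2 (adjusted p up to 0.928 over the 14 alternatives).

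Cox4i2, the second form of subunit 4, known for its response to oxygen, went the other way. It stood at 4.43 and 3.72 RPKM after control siRNA and at 1.61 and 1.28 RPKM after Hnrnpk siRNA. It was the furthest fall of the 48, with well separated groups (log2 change -1.23, SE 0.113, limma adjusted p = 1.15e-05), between -1.44 and -1.05 under the 14 alternatives. As a share of the summed RPKM of both forms, Cox4i2 was 0.334% and 0.269% after control siRNA and 0.102% and 0.0667% after Hnrnpk siRNA.

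For subunit 6A the liver-type form Cox6a1 stood at 449 and 423 RPKM after control siRNA and at 503 and 530 RPKM after Hnrnpk siRNA (log2 change 0.24, limma adjusted p = 0.0141, up to 0.247 over the alternatives). The muscle form Cox6a2 was near the floor in every library, at 0.0583, 0.115, 0.112 and 0.104 RPKM. Cox6b1, the somatic form of subunit 6B, which faces cytochrome c, stood at 433 and 420 RPKM and rose to 546 and 602 RPKM (log2 change 0.43, SE 0.076, limma adjusted p = 0.000778).

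The testis form Cox6b2 was also clearly present, at 41.3 and 24.8 RPKM after control siRNA and 31.0 and 29.6 RPKM after Hnrnpk siRNA. Its control replicates lay on both sides of the depleted ones, so no direction could be given (log2 change -0.076, SE 0.178, limma adjusted p = 0.721). Without control replicate 1 the log2 change was 0.29 (adjusted p = 0.00539), and without control replicate 2 it was -0.44 (adjusted p = 0.000207).

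Subunit 7A was carried mainly by the liver-type form Cox7a2, at 349 and 373 RPKM after control siRNA and 400 and 461 RPKM after Hnrnpk siRNA (log2 change 0.25, limma adjusted p = 0.0235). That call was lost under 5 of the 14 alternatives, with adjusted p-values up to 0.160. The heart and muscle form Cox7a1 was not called, at 24.2 and 23.6 RPKM and at 22.3 and 25.9 RPKM. Striated muscle markers were low, the 8 summing to 4.75, 5.27, 5.81 and 6.13 RPKM in the 4 libraries. Of the 4 tested, 2 were called higher (50%, beside 32.2% of all genes tested) and 1 lower (25%, beside 35%). Ckm, 1 of the 2 called higher, averaged 0.298 RPKM after control siRNA and passed the filter through the depleted libraries alone. The part of these markers in the values of the muscle forms was not tested. Cox7a2l stood at 87.7 and 77.4 RPKM after control siRNA and rose to 105 and 117 RPKM after Hnrnpk siRNA (log2 change 0.42, SE 0.081, limma adjusted p = 0.00120).

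The 2 forms of subunit 7B both rose, from levels far apart. Cox7b, the somatic form on the X chromosome, stood at 178 and 184 RPKM after control siRNA and at 224 and 272 RPKM after Hnrnpk siRNA (log2 change 0.45, SE 0.090, limma adjusted p = 0.00165). Cox7b2, the testis form, stood at 0.390 and 0.416 RPKM and then at 1.60 and 1.70 RPKM, the largest rise of the 48 (log2 change 1.25, SE 0.094, limma adjusted p = 3.47e-06). Both depleted libraries were about alike and well above both controls. The added 0.5 RPKM compresses this change: with an added 0.1 RPKM it was 1.80 and with 1 RPKM 0.92. Cox7b2 passed the filter on low values through its level after Hnrnpk siRNA. Its share of the subunit's summed RPKM was 0.219% and 0.225% after control siRNA and 0.708% and 0.619% after Hnrnpk siRNA.

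Among male germ cell markers, 6 of the 7 tested were called higher (85.7%, beside 32.2% of all genes tested). The other, Cyct, was called lower (14.3%, beside 35%). Prm1 was at 0 in every library. The 8 markers summed to 35.2 and 36.6 RPKM after control siRNA and 92.1 and 92.6 RPKM after Hnrnpk siRNA. Their part in the rise of Cox7b2 was not tested. The testis form of subunit 8, Cox8c, stood at 0.953 and 0.890 RPKM after control siRNA and at 1.48 and 0.958 RPKM after Hnrnpk siRNA; only replicate 1 was clearly higher, and it was not called (log2 change 0.26, SE 0.137, limma adjusted p = 0.122). Of the 3 testis forms of cytochrome oxidase subunits, only Cox7b2 was called, and it passed the filter through the depleted libraries alone.

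Subunit 8 was otherwise made by Cox8a, which rose from 376 and 368 RPKM to 453 and 500 RPKM (log2 change 0.35, SE 0.075, limma adjusted p = 0.00219). Cox8b, the muscle form, was listed at 0.0666 and 0.0621 RPKM after control siRNA and at 0 in both depleted libraries, which is too low for any comparison. Cox6c and Cox7c, small subunits without a second form here, stood at 59.1 and 66.3 RPKM and at 80.6 and 89.3 RPKM after control siRNA, with overlapping groups and no call. The neighbour gene Cox4nb had a log2 change of -0.11 and was not called.

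**Figure D3:**
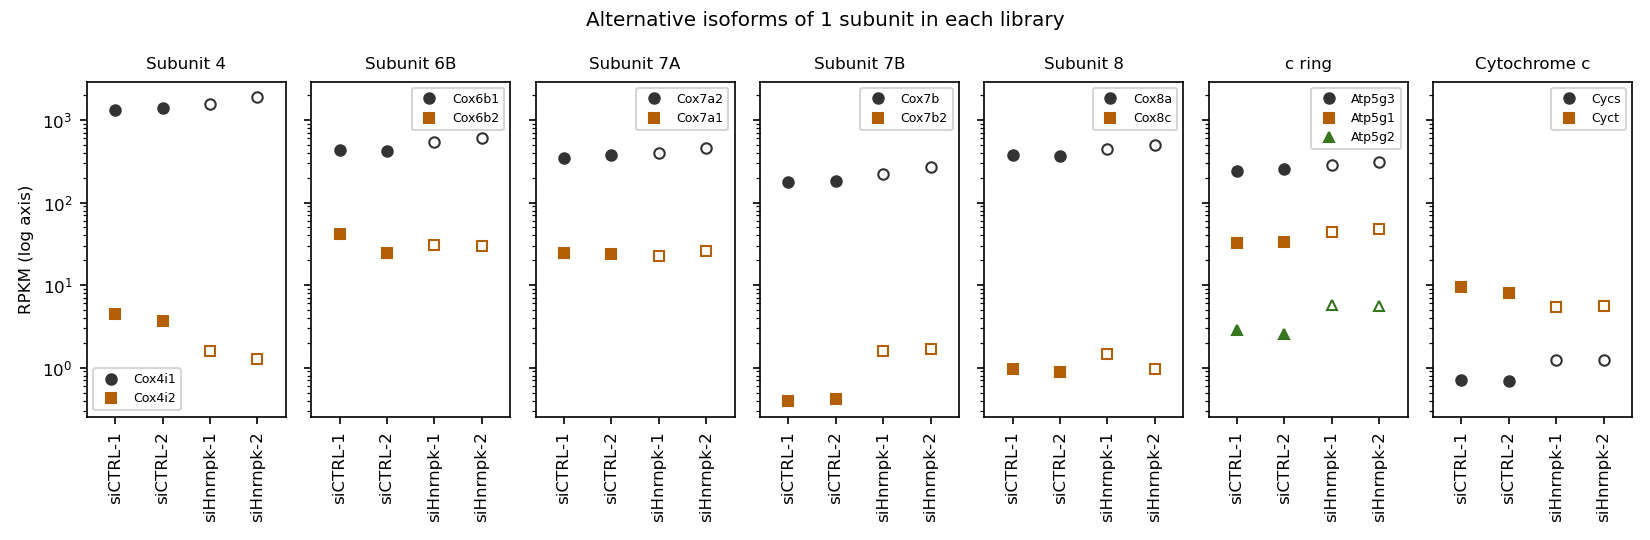
RPKM (log axis) of genes that encode alternative forms of 1 subunit in each of the 4 libraries; filled points are control siRNA and open points Hnrnpk siRNA, with cytochrome c including the testis form Cyct. The panels show Cox4i2 falling while Cox7b2 and Atp5g2 rise, and Cox6b2 with control points on both sides of the depleted ones.

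In complex V, 7 of 17 genes were called higher (41.2%, beside 32.2% of all genes tested), 1 lower (5.88%, beside 35%) and 9 not called. The median log2 change was 0.16. In the catalytic F1 head 1 of 5 subunits was called. The beta subunit Atp5b, which carries the catalytic sites, stood at 684 and 679 RPKM after control siRNA and at 781 and 821 RPKM after Hnrnpk siRNA (log2 change 0.23, SE 0.074, limma adjusted p = 0.0185). That call was the least stable of the complex: the change was -0.060 under quantile normalization and the call was lost under 4 further alternatives (adjusted p up to 0.360). Its partner in the head, the alpha subunit Atp5a1, stood at 565 and 550 RPKM and at 560 and 585 RPKM, with overlap. The gamma, delta and epsilon subunits Atp5c1, Atp5d and Atp5e had log2 changes of 0.050, -0.060 and 0.054.

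All 3 genes of the c ring were called higher. Their coding regions differ in the targeting sequence, while the mature c subunit is known to be the same protein. Atp5g3 supplied most of the RNA, with 241 and 256 RPKM after control siRNA and 288 and 307 RPKM after Hnrnpk siRNA (log2 change 0.26, SE 0.070, limma adjusted p = 0.00894, and 0.21 with adjusted p = 0.0626 without control replicate 1). Atp5g1 stood at 32.1 and 33.4 RPKM and then at 44.1 and 48.2 RPKM (log2 change 0.49, SE 0.068, limma adjusted p = 0.000172).

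Atp5g2 was the lowest of the 3 and moved furthest, from 2.87 and 2.59 RPKM to 5.71 and 5.53 RPKM (log2 change 0.92, SE 0.085, limma adjusted p = 1.19e-05). No depleted library of any c ring gene was within its control range. As shares of the summed c ring RPKM, Atp5g3 was 87.3% and 87.7% after control siRNA and 85.3% and 85.1% after Hnrnpk siRNA, and Atp5g2 was 1.04% and 0.884% and then 1.69% and 1.53%.

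The peripheral stalk was divided. Atp5f1, subunit b, stood at 95.6 and 94.8 RPKM after control siRNA and rose to 112 and 132 RPKM after Hnrnpk siRNA (log2 change 0.36, SE 0.081, limma adjusted p = 0.00336). Atp5h, subunit d, stood at 81.7 and 96.6 RPKM and rose to 118 and 127 RPKM (log2 change 0.46, SE 0.085, limma adjusted p = 0.000919). The stalk's top, Atp5o (the oligomycin sensitivity protein), and Atp5j (coupling factor 6) were not called, with log2 changes of 0.18 and -0.072. Atp5j2, Atp5k and Atp5l, small membrane subunits that help pair the enzyme into dimers, had log2 changes of 0.16, 0.11 and 0.13 and were not called either.

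The 2 genes named for factor B went opposite ways. Atp5s stood at 5.67 and 5.19 RPKM after control siRNA and at 2.87 and 3.26 RPKM after Hnrnpk siRNA, with well separated groups (log2 change -0.73, SE 0.091, limma adjusted p = 7.65e-05). Atp5sl, whose product takes part in building complex I, stood at 28.7 and 24.7 RPKM and then at 30.8 and 32.3 RPKM (log2 change 0.24, SE 0.080, limma adjusted p = 0.0230, up to 0.150 over the alternatives). Summed over the 15 subunit genes, complex V stood at 2707 and 2770 RPKM after control siRNA and at 2942 and 3170 RPKM after Hnrnpk siRNA, a ratio of means of 1.12. The total RPKM of all genes, given with complex IV, was higher after Hnrnpk siRNA too.

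Further ATP synthase genes fall outside the naming rule and were taken, with their values known, from the list of assembly factors. The small membrane subunit genes Usmg5 and 2010107E04Rik rose, from 143 and 165 RPKM to 178 and 227 RPKM and from 160 and 166 RPKM to 228 and 233 RPKM (log2 changes 0.39 and 0.50, limma adjusted p = 0.0119 and 9.33e-05). Atpif1, the inhibitor of ATP hydrolysis by the enzyme, fell from 153 and 153 RPKM to 125 and 142 RPKM (log2 change -0.20, limma adjusted p = 0.0346).

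Many of these genes share stretches of sequence with other genes, which bears on how firmly single values can be read. Not every match is a copy of the gene. Cox4i1 matches its neighbour Cox4nb, and of the 51 genes that match Cycs only 3 are annotated as pseudogenes. By BLAST at 95% identity over at least 100 bases, 12 of the 20 genes called higher, 0 of the 4 called lower and 10 of the 24 not called share part of their longest coding transcript with another gene. The share was 71.3% for Atp5h, 64.6% for Atp5f1, 62.8% for Uqcrb, 45.1% for Cox5b and 42.0% for Cox5a, and the highest, 92.0%, was that of the uncalled Atp5o. Cox6a1, Cox6b1, Cox7a2, Cox7b2, Cox8a, Atp5b, Atp5g3 and Atp5sl share none and were called higher. Some matching genes are listed in the table and were called higher too: Gm10250, which matches Atp5h, stood at 21.4 and 25.4 RPKM after control siRNA and 31.1 and 33.2 RPKM after Hnrnpk siRNA, and Gm11273, which matches Cox5b, at 3.30 and 3.52 and then 5.85 and 5.93 RPKM. Wdr77, which shares sequence with Atp5f1, stood at 57.2 and 60.7 and then 79.2 and 82.0 RPKM.

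These genes are also short and highly expressed, and short and abundant transcripts differed between the groups across the whole table. Of all tested genes with a transcript of at most 1000 bases, 291 of 728 (40.0%) were called higher and 24.2% lower, with a median log2 change of 0.13; the 27 respiratory genes in that class had 13 called higher (48.1%). Among longer genes 31.7% were called higher, against 7 of 21 respiratory genes (33.3%). At a mean of 100 RPKM or more, 295 of 734 genes (40.2%) were called higher and 19.2% lower, against 14 (48.3%) and 1 of the 29 respiratory genes at that level. With each library's trend on transcript length removed, 17 of the 48 were called higher (35.4%) beside 35.3% of all genes tested, and 5 lower (10.4%) beside 34.2%. Under quantile normalization the counts were 16 higher (33.3%, beside 33.4%) and 8 lower (16.7%, beside 34.7%). With no filter 28% of the respiratory genes were called higher beside 25.3%, without control replicate 1 35.4% beside 31.9%, and without control replicate 2 35.4% beside 32.3%. The share called higher was therefore near the background under these 5 settings. It was further above the background with the GC trend removed (45.8%, beside 33.5%). The same held under median-ratio scaling (43.8%, beside 33.1%) and with the replicate number as a block (47.9%, beside 33.3%). The share called lower was below the background under each setting run.

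**Figure D4:**
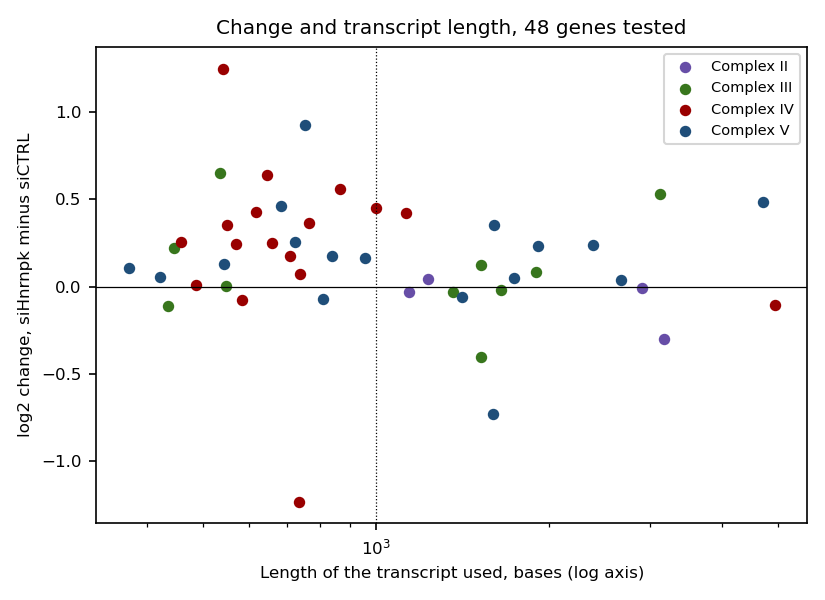
Log2 change (Hnrnpk siRNA minus control siRNA) against transcript length in bases (log axis) for the 48 genes tested, coloured by complex; the dotted line marks 1000 bases. The 27 genes at or left of the line have a median log2 change of 0.22 and the 21 to the right one of 0.042.

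**Figure D5:**
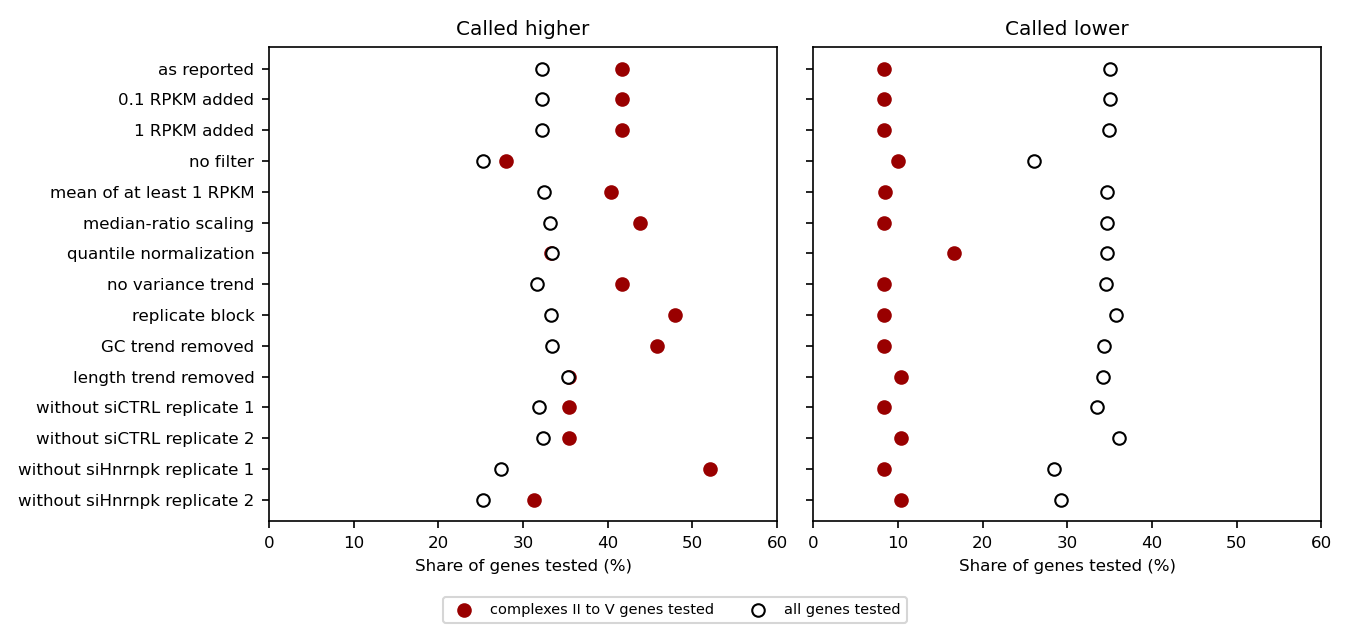
Share of tested genes called higher (left) and lower (right) under the reported processing and each of 14 alternatives, for the respiratory genes (filled) and all genes tested (open). The filled points lie close to the open ones on the left under quantile normalization and with the length trend removed, and to the left of the open ones in every row on the right.

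Calls for 13 of the 20 higher genes were kept under each of the 14 alternatives in which the gene was tested: Uqcrb, Cycs, Cox5a, Cox5b, Cox6b1, Cox7a2l, Cox7b, Cox7b2, Cox8a, Atp5f1, Atp5g1, Atp5g2 and Atp5h. All 4 lower calls (Sdhc, Uqcrq, Cox4i2 and Atp5s) were kept too. The other 7 higher calls, those of Uqcr11, Cox4i1, Cox6a1, Cox7a2, Atp5b, Atp5g3 and Atp5sl, were lost or turned under at least 1 alternative.

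Assembly factors, which insert haem, copper and iron-sulfur clusters and join subunits, were taken as a list together with translation activators. The list also held the ATP synthase genes Usmg5, 2010107E04Rik and Atpif1 described above, and Cox16 in separate rows. Its counts are therefore not of assembly factors alone: Usmg5 and 2010107E04Rik are among those called higher and Atpif1 among those called lower. Of 32 rows tested, 11 were called higher (34.4%, beside 32.2% of all genes tested) and 6 lower (18.8%, beside 35%), with a median log2 change of 0.14. The largest rise was that of Fam36a, now Cox20, a chaperone of the copper-bearing subunit of complex IV, from 10.5 and 10.6 RPKM to 27.6 and 27.6 RPKM (log2 change 1.35, limma adjusted p = 2.81e-07). The largest fall was that of Tmem70, which assists the assembly of ATP synthase, from 25.9 and 27.2 RPKM to 15.0 and 16.6 RPKM (log2 change -0.73, limma adjusted p = 1.90e-05). None of the 6 mitochondrial DNA genes of complexes III to V was matched in the table, so they were not analysed here.

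Regulators of mitochondrial transcription and biogenesis were near level at their median log2 change, 0.024, with 4 of 16 called higher (25%, beside 32.2% of all genes tested) and 3 lower (18.8%, beside 35%). Nrf1 stood at 10.0 and 10.2 RPKM after control siRNA and 10.6 and 10.9 RPKM after Hnrnpk siRNA, and Gabpa at 30.6 and 30.8 and then 31.1 and 28.9 RPKM; neither was called. Yy1 had the largest called rise of the list, from 46.0 and 43.7 to 62.2 and 61.6 RPKM (log2 change 0.46, limma adjusted p = 0.000128). Esrra, the oestrogen-related receptor that acts on respiratory genes, had the largest fall, from 5.64 and 5.47 to 1.68 and 2.05 RPKM (log2 change -1.36, limma adjusted p = 2.51e-06). Its coactivator gene Ppargc1a was at 0.0109 RPKM or less in every library and was not tested. The 3 lower calls were those of Esrra, Ppargc1b and Pprc1. Ppargc1b fell from 2.43 and 2.14 to 1.09 and 0.972 RPKM, and Pprc1 from 105 and 98.8 to 89.8 and 83.8 RPKM. The 4 higher calls were those of Yy1, Gabpb1, Tfam and Polg.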

How the data were processed

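The authors deposited RPKM values, 1 per gene and library, without pooling replicates. BWA, SAMtools and the mm9 build are named in the submitters' processing notes without versions; the sources used here do not name the counting tool or annotation, or say how reads matching several places were treated. Per the labels, the RNA is ribosomal-RNA depleted in the sample descriptions and poly(A) selected in the extract protocol; which was used is uncertain.

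The 12486 genes averaging 0.5 RPKM or more were compared as log2(RPKM + 0.5) in R 4.3.3 by two-sided limma 3.58.1 tests, using a variance trend (7.47 prior degrees of freedom) and Benjamini-Hochberg adjustment over the genes tested. On this scale changes of low genes appear too small. On simulated data for these 12486 genes the procedure recovered 69% of changes of 0.5 and 100% of changes of 1, with 6 of 175 calls among unchanged genes. Far fewer genes were changed there than were called in the real data (67.2% of genes tested). The simulated noise was also independent between genes, so these rates need not hold for the calls reported here. Transcript length and GC content came from GENCODE M21 by identifier (92.8% of identifiers matched), and shared sequence from BLAST 2.17.0. The relative depth of the libraries was 0.882 to 1. Alternatives changed the added value, filter, scaling, variance trend, replicate block, GC or length trend, or left out 1 library.

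All 50 genes are accounted for. Values in every library were printed for Hnrnpk, the highest and lowest change of each complex, called changes of at least 0.5, isoform sets, and others where a complex needed them; from each pathway list the highest and lowest called change were named, and marker lists were described by sums, counts and some members. The genes and lists were chosen with earlier results of these data known.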

Additional observations from a re-analysis of the deposited data

How the results depend on the processing

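Of 671 recomputed log2 changes of single genes over 14 alternatives, 591 kept their direction and their side of the threshold, 26 lost a call, 20 gained one and 34 changed sign. Among the alternatives that kept all 4 libraries, the fewest respiratory genes were called higher with no filter, 14 of 50 (28%, beside 25.3% of all genes tested). The most were called higher with the replicate block, 23 of 48 (47.9%, beside 33.3%). The number called lower ran from 4 to 8, the latter under quantile normalization (16.7%, beside 34.7%). Where 1 library was left out, the lone library of its group was assumed to vary like the other group.

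The median log2 change of complex II was -0.093 under quantile normalization, 0.010 with the GC trend removed and -0.063 to -0.0098 without 1 library at a time. Under quantile normalization and without 1 library it was, for complex III, -0.054 and -0.023 to 0.12, for complex V 0.034 and 0.081 to 0.27, and for complex IV 0.13 and 0.22 to 0.36; the complex IV median was also 0.34 with 0.1 RPKM added, 0.35 with the GC trend removed and 0.15 with the length trend removed. The cause was not tested.

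Changes of sign were as follows. Quantile normalization gave log2 changes of -0.081 for Sdhd, -0.0093 for Atp5e, -0.0098 for Cyc1, -0.060 for Atp5b, -0.17 for Atp5a1 (called, limma adjusted p = 0.0357), -0.031 for Atp5c1, -0.0030 for Uqcrc2, -0.0072 for Cox4i1, -0.098 for Uqcrh and -0.012 for Cox7a1. Removing the GC trend gave 0.098 for Atp5d, 0.038 for Sdhb, 0.025 for Atp5j, 0.10 for Uqcrc1 and 0.016 for Cox6b2. Removing the length trend gave -0.016 for Cox6c, -0.11 for Atp5e, -0.070 for Atp5k, -0.13 for Uqcrh and -0.14 for Cox7a1. Without 1 library at a time the changes lay between -0.0079 and 0.16 for Cox6c, -0.064 and 0.17 for Atp5e, -0.44 and 0.29 for Cox6b2, -0.099 and 0.10 for Uqcrh, -0.10 and 0.11 for Cox7a1, -0.062 and 0.020 for Uqcrc1, -0.080 and 0.023 for Uqcrfs1, -0.24 and 0.022 for Uqcr10, -0.065 and 0.15 for Sdhd, -0.0032 and 0.10 for Atp5c1, and -0.070 and 0.33 for Atp5l.

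Both groups carry replicate numbers 1 and 2, which nothing in the labels ties to a shared batch; the deviations of same-numbered libraries correlated at 0.027 across 12486 genes. With the replicate number as a block, 23 of the 48 genes were called higher (47.9%, beside 33.3% of all genes tested). In that setting 4 were called lower (8.33%, beside 35.7%), and no call of the 48 was lost. With only 2 libraries per group and no read counts, depth limits chiefly the genes under 1 RPKM after control siRNA: Cox6a2, Cox8b, Cox8c, and the called genes Cox7b2 and Cycs.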

Other observations

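Genes that feed the chain are described first. Of 19 tested genes of the citric acid cycle, the enzymes feeding ubiquinone and the testis cytochrome c, 5 were called higher (26.3%, beside 32.2% of all genes tested) and 10 lower (52.6%, beside 35%) by limma, with a median log2 change of -0.20. Fh1, fumarase, which takes up the fumarate made by complex II, had the largest fall, from 82.1 and 79.4 RPKM after control siRNA to 49.6 and 52.3 RPKM after Hnrnpk siRNA (log2 change -0.66, limma adjusted p = 1.47e-05). Etfdh, which passes electrons from fatty acid oxidation to ubiquinone, had the largest rise, from 3.64 and 3.55 to 5.94 and 5.72 RPKM (log2 change 0.63, limma adjusted p = 8.24e-05).

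Another list held 7 genes for carriers of adenine nucleotides and phosphate and for the outer membrane channels. Of these, 3 were called higher (42.9%, beside 32.2% of all genes tested) and 1 lower (14.3%, beside 35%). Slc25a31, the testis form of the ADP/ATP carrier, rose from 1.17 and 1.43 to 10.3 and 9.71 RPKM (log2 change 2.55, limma adjusted p = 7.72e-08). Slc25a5, the most abundant form here, fell from 456 and 455 to 388 and 402 RPKM (log2 change -0.21, limma adjusted p = 0.0217). Slc25a4, the heart and muscle form, named after its values were seen, rose from 120 and 122 to 258 and 290 RPKM (log2 change 1.17, limma adjusted p = 1.19e-06).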
